A study of Mus musculus with 26 samples.

Results

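Of the 315 assay positions of a mouse microRNA panel, 16 were selectively low in primary hepatocytes. MicroRNAs had been measured by stem-loop RT-qPCR, which reports each assay as a threshold cycle (Ct), with a later Ct meaning less RNA. The 16 assays were chosen on these measured values. The level of an assay was written as log2 relative expression, the mean Ct of reference assays in a sample minus the Ct of the assay. The reference assays were those with a Ct below 35 in all 26 samples, 87 of them at positions lettered A and B, 26 at C and 9 at D, and each of these 3 position sets had its own mean. A Ct later than 35, or none, was set to 35. An assay was kept when its group medians spanned at least 3 log2 units and its hepatocyte median lay at least 1 below the lowest of the medians in untreated induced pluripotent stem cells (iPSC), embryonic stem cells (ESC), fibroblasts and islets. That last difference is called the gap below. Assays that stood out by 1 log2 unit or more in pluripotent cells, in fibroblasts or in islets were not kept, and 18 further positions were left out by name. Hepatocytes against each other group were thus used to choose the assays, and these differences are given as a description, with no test.

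The groups were 5 untreated iPSC clones made from mouse tail-tip fibroblasts, 5 samples of those fibroblasts, 3 samples each of the ESC lines D3 and R1, and 3 samples each of hepatocytes and pancreatic islets. Hepatocytes and islets were primary cells of adult C57BL/6 mice, and the labels do not say whether animals were pooled. Untreated iPSC and ESC were kept on inactivated mouse embryonic feeder fibroblasts with leukemia inhibitory factor. A further 4 samples came from iPSC clones 2 and 3, with 2 samples per clone, taken off the feeders and given activin A for 5 days. The treatment protocol states 100 ng/ml of activin A, while the sample characteristics give the same figure per microlitre. The treated samples did not enter the medians of the rule. Apart from the iPSC clones, the labels leave unsaid whether replicates were separate cultures or animals. The p-values therefore measure spread among the deposited samples only, and part of it may be technical.

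MicroRNAs are short RNAs that guide Argonaute proteins to messenger RNAs, which are then translated less or degraded. Each cell type holds a characteristic set of them, and in hepatocytes much of the microRNA pool is known to be a single species, miR-122. Activin A, a secreted signal of the TGF-beta family, is widely given to pluripotent cultures to start endoderm formation. Endoderm is the germ layer from which hepatocytes and islet cells both arise. The deposited files name assays by position only. The 16 assays are therefore given as positions, their microRNA families, sequences and targets are not given here, and the cell types could not be checked against marker microRNAs. In samples of whole cultures or tissue, fewer cells of a type and less RNA per cell cannot be told apart.

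Over the whole panel, hepatocyte samples had between 210 and 219 assays with a Ct below 35, islet samples between 267 and 273, and untreated iPSC and ESC between 241 and 275. Fibroblast replicate 5 stood apart, with 187 such assays against 240 to 272 in the other fibroblast samples, and its reference Ct at A and B was 29.9, against 23.2 to 26.7. The mean reference Ct of hepatocytes was 26.4 at A and B, 28.5 at C and 28.9 at D, and that of islets was 25.6, 26.6 and 26.8. Hepatocytes thus ran later than islets in every set, by more at C and D than at A and B, and the gap is measured after this shift is taken out.

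The 16 assays lay at 4 of 96 positions of letter A, 7 of 96 of letter B, 5 of 95 of letter C and 0 of 28 of letter D. They were B49, A42, C09, B31, B34, B29, C48, C42, C46, B22, A32, C35, B70, B40, A56 and A85, in order of falling gap. No 2 of them had consecutive position numbers, and the plate layout was not used here. Their gap ranged from 1.00 at A85 to 6.58 at B49, with a median of 2.22, against a median of -1.35 over the 301 assays with a Ct below 35 in at least 50% of the samples of some group. Of those 301 assays, 65 (21.6%) had a gap of at least 1, and the other conditions and the positions left out by name reduced these to the 16. In Ct alone, with no reference, the hepatocyte median was later than the latest of the other medians by at least 1 cycle in 13 of the 16, with a median of 3.87 cycles. The 3 others were B22 at 0.169, A85 at 0.426 and B40 at 0.858 cycles, so in these the reference made up part of the gap. It did so too at B49, A42 and B70, where the Ct differences were 5.04, 4.12 and 1.11 cycles. In the remaining assays the difference in Ct was larger than the gap.

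**Figure D1:**
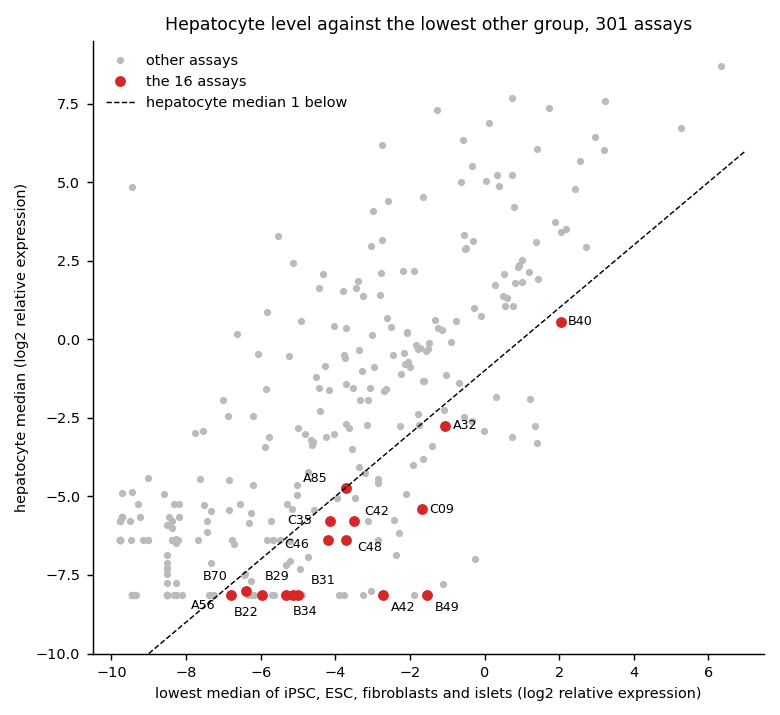
Each point is 1 of 301 assays, with the lowest of the medians of untreated iPSC, ESC, fibroblasts and islets on the horizontal axis and the hepatocyte median on the vertical axis, both in log2 relative expression, and points on or below the dashed line have a gap of at least 1. The 16 assays (red) run from A85 on the line to B49 far below it. Those in a row at the bottom, from A56 to B49, have hepatocyte medians at or near the Ct limit of 35. The hepatocyte medians of C48, C46, C42 and C35 are at that limit too, and lie higher through the later hepatocyte reference Ct at C.

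The 16 assays were also detected less often in hepatocytes. Of 48 hepatocyte values of the 16 assays, 23 (47.9%) were below 35, 14 lay between 35 and 40, and 11 had no Ct. The share was 100% of 48 values in islets, 95% of 80 in untreated iPSC, 96.9% of 96 in ESC and 90% of 80 in fibroblasts. Over the 301 assays, the shares were 71.2% in hepatocytes, 88.9% in islets, 85.2% in untreated iPSC, 85.9% in ESC and 78.7% in fibroblasts. The hepatocyte median of relative expression was a value set to 35 in 11 of the 16 assays, so that their gap depends on that limit. B49 and B22 are among the 11, and with the limit at 40 their gaps were 6.88 and 2.36. A Ct below 35 was found in no hepatocyte sample for 4 of the 16 assays, against 17.3% of 301. It was found in 1 sample for 5 assays, in 2 samples for 3 and in all 3 samples for 4. In Ct, every hepatocyte sample was later than each of the 19 untreated iPSC, ESC, fibroblast and islet samples in 4 of the 16 assays, against 5.32% of 301. In relative expression this held for 9 of 16, against 10.6% of 301, and also for 9 without fibroblast replicate 5, against 11.0%. The 9 include B31 and B34, where that replicate had no Ct and stands above hepatocytes through its later reference Ct alone. By group, every hepatocyte sample was below every islet sample in 13 of the 16 assays (31.6% of 301), below every iPSC sample in 11 (33.2%), below every ESC sample in 11 (35.2%) and below every fibroblast sample in 11 (19.9%). The rule chose the assays on this contrast, and nothing is read from these shares.

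**Figure D2:**
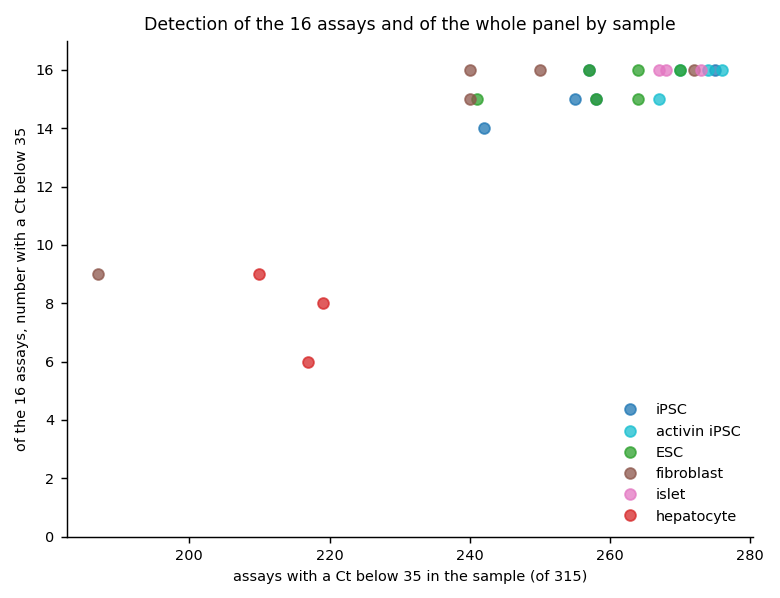
Each point is 1 of 26 samples, with the number of all 315 assays below a Ct of 35 on the horizontal axis and the number of the 16 assays below 35 on the vertical axis. Hepatocytes had 8, 6 and 9 of the 16 below 35 and fibroblast replicate 5 had 9, while the other samples had 14 to 16.

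The 4 assays below 35 in no hepatocyte sample were C46, C48, B34 and B29. At C46, hepatocyte replicate 1 had a Ct of 36.6 and the other replicates had none. The 5 iPSC clones had Ct values of 28.6, 26.1, 27.4, 25.6 and 27.5, and the fibroblasts 28.3, 29.4, 28.3, 28.1 and 33.5. Islets had 27.1, 27.9 and 29.8, and ESC ran from 25.9 through a median of 27.4 to 28.5. All 19 samples of these groups were therefore earlier than hepatocytes, and fibroblast replicate 5 was the latest of them. In relative expression the medians of C46 were -0.33 in iPSC, -0.61 in ESC, -1.31 in islets and -4.21 in fibroblasts, so that fibroblasts set the gap of 2.19.

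C48 had the same form. In hepatocytes it had a Ct in replicate 3 alone, 35.01 and just past the limit. In islets the values were 23.1, 27.2 and 29.4, the widest islet spread among the 4 assays below 35 in no hepatocyte sample. The clones of iPSC had 30.2, 27.3, 27.6, 26.2 and 28.5, fibroblasts 26.99, 28.5, 28.2, 28.1 and 33.02, and ESC from 26.7 through 28.1 to 29.2. No sample of these groups reached the hepatocyte range. C46 and C48 were 2 of the 4 assays on the panel (1.33% of 301) with a Ct below 35 in all 19 of these samples and in no hepatocyte sample.

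B34 and B29 had later Ct values throughout. B34 had a Ct of 35.1 in hepatocyte replicate 1 and none in the others, against 28.1, 29.5 and 29.6 in islets and 31.4, 29.1, 30.7, 31.4 and 32.9 in iPSC. Its ESC values ran from 30.4 through 31.2 to 32.03, and fibroblasts had 27.5, 30.3, 30.7, 33.2 and, in replicate 5, no Ct. At B34, fibroblast replicate 5 and the hepatocytes could thus not be ordered in Ct. Its gap of 2.99 was the difference in reference Ct between fibroblast replicate 5 and hepatocyte replicate 3, which both had no Ct, and it was 2.96 without that fibroblast sample. B29 had a Ct in all 3 hepatocyte samples, 35.9, exactly 36 and 35.6, each past the limit. In islets B29 had 30.1, 33.9 and 31.2, in iPSC 31.6, 29.8, 30.2, 31.6 and 30.6, in ESC from 30.7 through 31.7 to 33.5, and in fibroblasts 31.5, 31.3, 28.5, 30.5 and none. Every sample with a Ct outside hepatocytes was earlier than the hepatocytes at B29, and islet replicate 2 was the nearest of them. In relative expression that islet sample, at -8.35, lay below hepatocyte replicates 2 and 3, at -8.12 and -8.13.

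Assays with 1 hepatocyte sample below 35 were A42, B31, C42, C35 and A56. A42 had the second-largest gap, 5.41, and it rested on samples that differed. Hepatocyte replicate 2 had a Ct of 29.7 and the other hepatocyte samples none, while iPSC replicate 1 had 36.6 and the other clones 29.5, 30.9, 30.9 and 28.4. Hepatocyte replicate 2 therefore lay within the iPSC range, and within the ESC range of 28.7 to 31.05 (median 29.5). Fibroblasts, at 24.1, 27.4, 23.5, 26.6 and 26.4, and islets, at 25.8, 26.1 and 27.3, were all earlier than any hepatocyte sample. The gap of A42 was 2.74 without hepatocyte replicate 1, 3.42 without replicate 3 and 6.08 without replicate 2.

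B31 had hepatocyte Ct values of 36.8, 35.8 and 34.1. The islet values were 27.9, 29.6 and 29.7, those of iPSC 30.7, 28.4, 29.3, 30.96 and 30.8, and ESC ran from 29.1 through 30.4 to 31.4. Fibroblasts had 28.7, 30.03, 29.1 and 31.5, with no Ct in replicate 5. Every sample with a Ct below 35 outside hepatocytes was at least as early as 31.5, so that hepatocytes were separate at B31 apart from the empty fibroblast value. C35 gave 32.97, no Ct and 39.1 in hepatocytes, against 28.1, 29.02 and 30.2 in islets and 31.2, 28.5, 29.7, 27.2 and 29.4 in iPSC. Fibroblast replicate 5 had no Ct at C35 either, while the other fibroblasts lay at 27.5, 28.7, 28.8 and 28.1 and ESC ran from 28.1 through 29.9 to 30.8. In relative expression hepatocyte replicate 1 of C35, at -4.37, lay above fibroblast replicates 3 and 5, at -5.12 and -5.68.

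C42 and A56 were the assays with most empty or late values outside hepatocytes, 3 each among the 19 samples. C42 had 34.1, 35.1 and 38.3 in hepatocytes, but also 35.2 in iPSC replicate 1, 39.8 in replicate 1 of ESC D3, exactly 36 in fibroblast replicate 5 and 34.96 in islet replicate 1. The other clones were at 27.8, 27.99, 26.1 and 28.1, the other fibroblasts at 27.3, 27.7, 29.7 and 27.4, and the other islet samples at 27.1 and 30. In iPSC, ESC, fibroblasts and islets, 1 late sample thus stood beside earlier samples of its group. The gap of C42, 2.26, turned to -0.12 without islet replicate 2. At A56, hepatocytes had no Ct, 38.2 and 34.7, and no Ct was recorded in iPSC replicate 5, fibroblast replicate 2 and replicate 3 of ESC D3. The remaining A56 values ranged from 27.1 to 31.9 in iPSC and from 26.7 to 33.3 in fibroblasts, and islets had 28.1, 27.2 and 30.6. The other ESC values of A56 ran from 30.7 to 34.6, the latest, replicate 3 of R1, being level with hepatocyte replicate 3. Of 368 values of the 16 assays outside hepatocytes, treated cells included, 16 were empty or past 35. Of these, 7 were in fibroblast replicate 5, where 37.9% of the 301 assays were not below 35, and 7 stood in groups whose other samples had a median Ct below 30. B31, C42 and C35 in fibroblast replicate 5 were in both counts. Some empty or late values thus stood beside replicates with an earlier Ct. The share of such values over all assays was not worked out.

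B49, B22 and B70 had 2 hepatocyte samples below 35. B49 showed the largest gap of the 16 assays and the largest difference from islets. Its Ct was 34.2, 35.3 and 33.8 in hepatocytes and 23.8, 24.6 and 24.3 in islets, with no overlap. In iPSC it was 28.7, 27.5, 27.4, 28.1 and 27.2, in fibroblasts 23.1, 27.2, 23.01, 25.4 and 29.02, and in ESC from 27.4 through 29.1 to 30.6. All 19 of these samples were earlier than every hepatocyte sample, by at least 3 cycles, and the gap stayed between 5.97 and 6.83 when each hepatocyte sample was left out. B49 was also earlier in islets than in any pluripotent sample.

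B22 was the weakest of the 16 in Ct. Hepatocytes had 33.9, 35.3 and 32.4, which overlapped iPSC at 33.5, 32.6, 34.6, 34.6 and 32.2 and the ESC, which ran from 31.7 through 33.8 to past the limit. Fibroblasts, at 30.5, 30.4, 30.2, 31.9 and, in replicate 5, 39.2, and islets, at 29.4, 30.9 and 30.2, were earlier apart from that replicate. B70, named here after its values were seen, went against its selection in 1 sample. Hepatocyte replicate 3 had a Ct of 15.1 at B70, while replicate 1 had none and replicate 2 had 34.9. Islets had 30.1, 32.6 and 31.7, fibroblasts 30.4, 30.3, 29.2, 31.99 and none, and ESC from 31.2 through 32.5 to 34.4. The iPSC clones had 33.8, 32.5, none, 34.6 and 33.6. Apart from hepatocyte replicate 3, no sample was thus earlier than 29.2. The median ignores that sample, so the gap was 1.62, but it was -4.45 with group means in place of medians, -8.25 without hepatocyte replicate 1 and -7.52 without replicate 2. Whether the 15.1 is a measurement of this microRNA was not tested.

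C09, A32, B40 and A85 were below 35 in all 3 hepatocyte samples, and the gap of each was the same with the limit at 40. C09 had hepatocyte values of 32.3, 33.4 and 34.6. Islets had 26.5, 26.9 and 27.8, iPSC 26.6, 25.05, 25.9, 24.97 and 27.3, and ESC from 25.4 through 26.4 to 27.3. Fibroblasts had 24.05, 24.9, 25.3, 26.05 and, in replicate 5, a Ct of 32, so that this replicate alone came near hepatocytes at C09. The gap was 3.73, the largest among the 4 assays below 35 in every hepatocyte sample, and 1.73 with the limit at 32, where the other 3 kept theirs. A32 had 30.5, 29.6 and 28.5 in hepatocytes, 25.8, 25.2 and 27.8 in islets and 26.02, 25.4, 26.03, 26.97 and 26.8 in iPSC. Its fibroblast values were 25.3, 25.7, 22.1, 25.6 and 29.2, of which the last, in replicate 5, overlapped hepatocytes in Ct, and ESC ran from 24.9 through 25.9 to 28.

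B40 had the earliest hepatocyte Ct values of the 16 assays, if B70 in replicate 3 is left aside, at 24.7, 26.3 and 26.3. In Ct it overlapped iPSC, at 25.1, 24.5, 26.2, 26.1 and 25.5, and ESC, from 24.3 through 24.9 to 26.2. In relative expression, B40 medians were 3.60 in islets, 3.16 in fibroblasts, 2.50 in ESC, 2.04 in iPSC and 0.56 in hepatocytes, and no hepatocyte sample overlapped the other groups. A85 had hepatocyte values of 32.4, 31.6 and 31.4, against 31.1, 31.05, 31.8, 31.8 and 30.6 in iPSC and from 29.9 through 31.2 to 31.6 in ESC. These overlapped in Ct, whereas fibroblasts, at 24.1, 26.2, 21.1, 26.5 and 29, and islets, at 24.4, 25.3 and 28.2, were all earlier. A85 was thus high in fibroblasts and islets and low in both pluripotent groups as well as in hepatocytes, and with a gap of 1.00 it was the assay nearest to the threshold from inside. Next inside were A56 at 1.32 and B40 at 1.48. Nearest outside it, with every other condition met, were B91 at 0.78, C20 at 0.06 and C55 at -0.39.

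**Figure D3:**
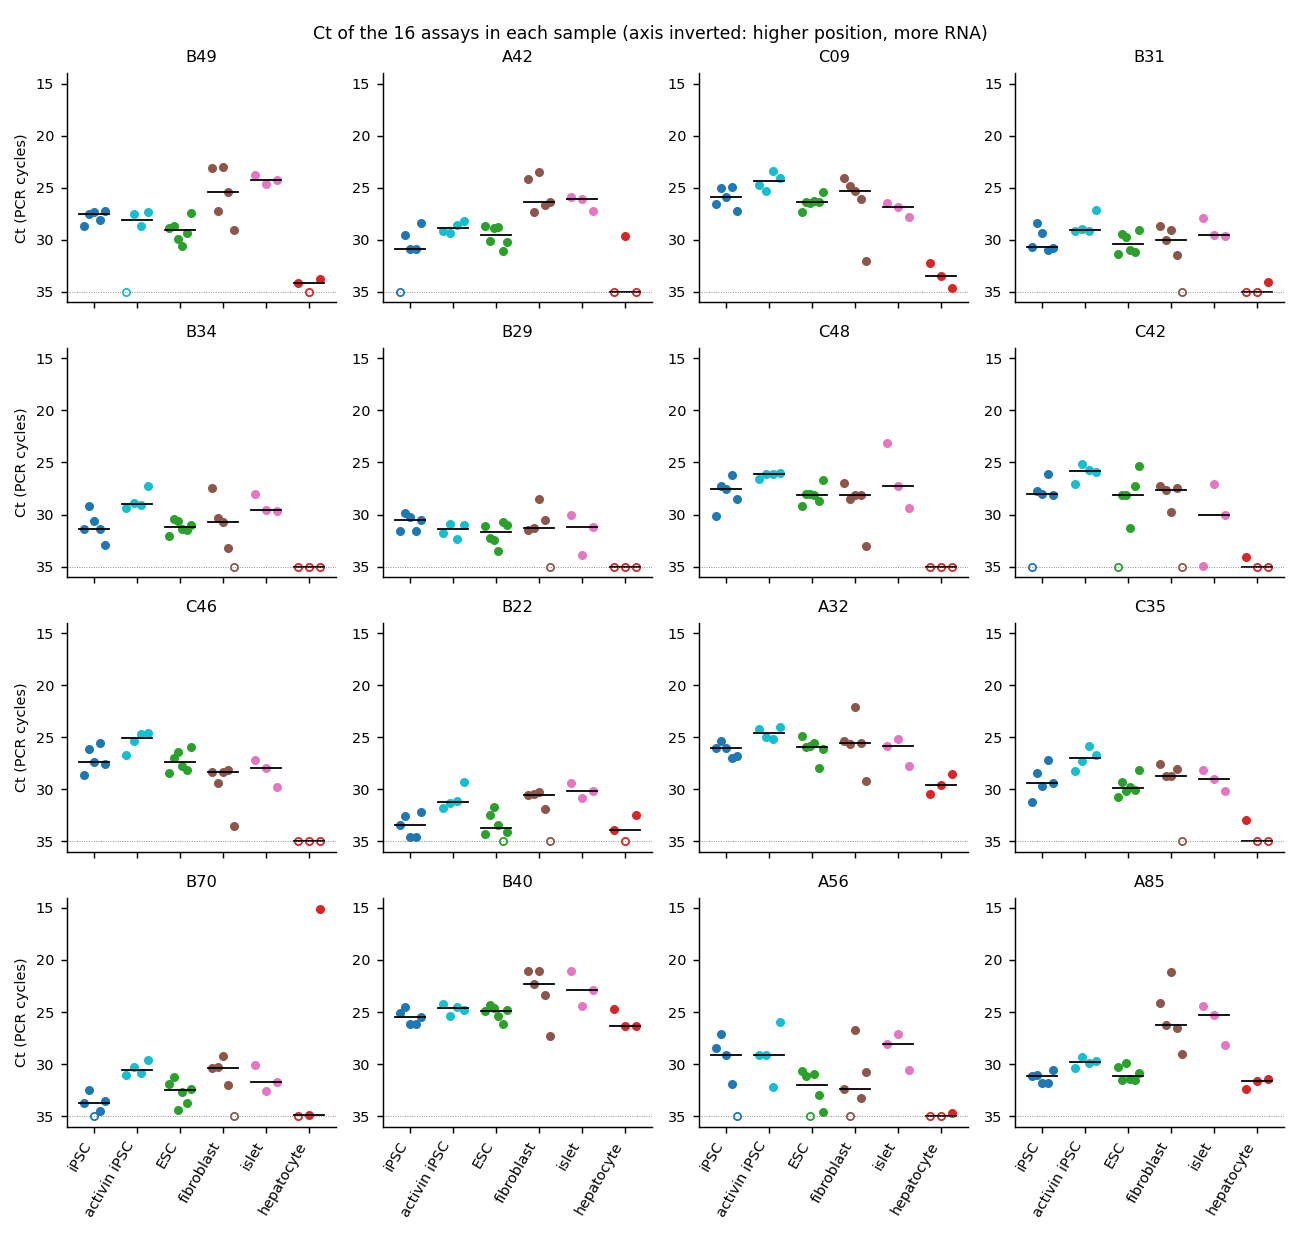
Each panel is 1 of the 16 assays in order of falling gap, with the Ct of each sample on an inverted axis (upwards means more RNA), open circles for values at the limit of 35, and bars for group medians. Hepatocytes lie lowest in most panels, hepatocyte replicate 3 stands alone at 15.1 at B70, and A85 shows hepatocytes level with iPSC and ESC.

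The other groups were ordered differently from assay to assay. In relative expression, the lowest of the 4 other medians was in fibroblasts for 8 of the 16 assays, in iPSC for 4, and in ESC and islets for 2 each. The highest was in iPSC for 7, in islets for 5, and in ESC and fibroblasts for 2 each. C46 and A56 fell furthest short in fibroblasts, with medians of -4.21 and -6.80 against -0.33 and -1.47 in iPSC. A85, A42 and B49 ran the other way, with fibroblast medians of 0.86, -0.15 and 0.84 against -3.71, -2.72 and -0.32 in iPSC. The rule bounded these differences on one side, and they were not tested. Within groups, the median SD of log2 relative expression over the 16 assays was 0.69 in iPSC and 0.77 in ESC. It was 1.16 in fibroblasts, 0.87 in islets and 1.02 in hepatocytes. Over the 301 assays the values were 0.93, 0.85, 1.38, 0.83 and 0.78, in the same order of groups.

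The difference from islets was present with both references. The submitters normalized to RNU6, the U6 small nuclear RNA, and the values they subtracted could be recovered from their fold changes. With RNU6 as reference, the mean level was lower in hepatocytes than in islets for 15 of the 16 assays, with a median difference of -5.85. With the mean Ct as reference it was also lower for 15, with a median of -4.62. The exception was B70, at 0.74 and 3.96. B49 had the largest difference, -12.47 by RNU6 and -9.25 by the mean Ct. In the authors' deposited table, where a negative value for islets against hepatocytes means more RNA in islets, 15 of the 16 assays were negative, against 80.4% of 286 assays. There the median was -6.25 for the 16 and -3.33 for all, and B70 stood at 3.41. The rule had required the islet median to lie above the hepatocyte median, so the direction was largely set by the choice. With either reference, all these values share samples with the rule and are no independent support for it. Outside the deposited table, the share over all assays was not worked out. RNU6 could not be compared between hepatocytes and the iPSC, fibroblasts or ESC.

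Activin-treated samples were not used by the rule, but the untreated samples of the same iPSC clones were. They are given beside hepatocytes as a description. Of 64 treated values of the 16 assays, 63 (98.4%) were below 35, against 90.0% over the 301 assays. The treated median was above the hepatocyte median in 16 of 16 assays, by between 1.11 at B40 and 6.42 at B49, with a median of 5.04, against 0.20 over the 301 assays. Every treated sample was above every hepatocyte sample in 12 of the 16 assays, against 31.6% of 301. In relative expression the 4 exceptions were A42, B70 and B40, in which a hepatocyte sample reached the treated range, and B49, in which replicate 1 of treated clone 2 had no Ct. How many of the 301 assays had a treated median above the hepatocyte median was not worked out. The hepatocyte values had chosen the assays, and the rule had required the untreated iPSC median to lie above them. The direction in treated cells of the same clones was thus largely set by the choice. Nothing is read from the 16 of 16, and no test is given.

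Activin treatment of iPSC addressed the first step of differentiation, and removal from feeders went with it. None of the 16 assays passed the threshold of 0.05 in limma after adjustment over the 284 assays tested, of which 1 (0.352%) did. That single call was lost with clone as a block, which left 0. At an unadjusted p under 0.05 there were 2 of the 16 and 25 of the 284 (8.80%). The median log2 difference, treated minus untreated, was 0.27 for the 16 assays and -0.11 for all. Relative to RNU6 these medians were 2.58 and 1.68, with 6 of the 16 and 56 of the 284 at an unadjusted p under 0.05 and 0 of the 16 called. The RNU6 fit held only iPSC, fibroblasts and treated clones, so these counts differ from the main fit in samples as well as in reference. In the main fit the half-width of the 95% interval was 1.88 at the median of the 16 assays. The interval lay within 2 log2 units, a 4-fold difference, for 4 of the 16 and for 40 of the 284. In the authors' deposited table, which is normalized to RNU6, 14 of the 16 assays had a value that stands for more RNA after activin, against 88.4% of 303.

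B49 and B29 had the smallest p-values. B49 had a Ct of 27.6 in the second sample of treated clone 2 and of 28.6 and 27.3 in treated clone 3, with none in the first sample of clone 2. The untreated clones, at 27.2 to 28.7, overlapped the treated samples in Ct. In relative expression all treated samples of clones 2 and 3 were lower than the untreated sample of their clone, and the log2 difference was -3.06 (SE 0.89, limma adjusted p 0.0976, n = 2 clones against 5). It was -1.33 without the first sample of clone 2 (limma adjusted p 0.710), so that the empty value made up most of it. The main fit had no term for clone, although clones 2 and 3 were also among the 5 untreated clones. With clone as a replicate block the log2 difference of B49 was -3.13 (limma adjusted p 0.329). Over the other settings the adjusted p of B49 ranged from 0.0722 to 0.796. B29 had Ct values of 31.7 and 30.9 in clone 2 and 32.4 and 30.98 in clone 3. Relative to the untreated sample of the clone it changed by -2.21 and -1.88 in clone 2 and by -3.01 and -2.55 in clone 3. The log2 difference of B29 was -1.96 (SE 0.89, limma adjusted p 0.514), and relative to RNU6 it was -0.45. By RNU6, B49 was -1.54. B22 was next, at 1.39 (SE 0.92, limma adjusted p 0.878), higher than the untreated sample of the clone in all 4 treated samples, with values that lay late in every iPSC sample, and at 2.90 by RNU6. For the other 13 assays the log2 difference lay between -0.46 at B40 and 2.20 at B70, and the fit for B70 carried the spread of its hepatocyte samples, with an SE of 3.22.

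Untreated iPSC were set against ESC, the pluripotent reference of the study. Both medians had entered the rule through the lower of them, though their difference had not. A low median in either group worked against selection, so the differences in the 16 assays are no independent result. Limma called 0 of the 16 and 0 of 273 assays (0%), with 0 and 20 (7.33%) at an unadjusted p under 0.05. The median log2 difference, iPSC minus ESC, was 0.08 for the 16 assays and 0.06 for all, and the median absolute difference was 0.35 and 0.45. B49 had the smallest p, with a log2 difference of 1.29 (SE 0.64, limma adjusted p 0.706). B29 followed at 1.03 (SE 0.64, limma adjusted p 0.996) and A56 at 2.16 (SE 1.42, limma adjusted p 0.996). Single samples moved both: A56 was 3.48 without iPSC replicate 5 and 1.44 without replicate 3 of ESC D3, each of which had no Ct, and B29 was 0.60 without replicate 1 of R1. The 95% interval lay within 2 log2 units for 10 of the 16 assays and for 114 of the 273. Among the 16, it reached past that bound for A42, C42, B49, B29, A56 and B70. At C46 the interval was narrowest, from -0.83 to 1.04.

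Between the ESC lines D3 and R1, limma likewise called 0 of the 16 and 0 of 273 assays (0%), with 0 and 3 (1.10%) at an unadjusted p under 0.05. D3 was lower than R1 in 13 of the 16 assays, with a median log2 difference of -0.49 against -0.12 over all assays, of which 57.5% were lower in D3. With 1 mean Ct for all positions together it was lower in 11, with a median of -0.42 against -0.15 over all assays. With quantile normalization it was also lower in 11, with a median of -0.28 against -0.05. The share of all assays lower in D3 under these settings was not worked out. The smallest p-values were at C42, with a log2 difference of -2.61 (SE 2.00), B29, at -1.04 (SE 0.87), and C35, at -0.89 (SE 0.80), each with a limma adjusted p of 1.00. Replicate 1 of D3 had a Ct of 39.8 at C42, against 28.1 in both other D3 samples and 25.3 to 31.3 in R1. Without that replicate the log2 difference of C42 was -0.54. That of B29 was -0.30 without replicate 2 of R1 and -1.89 without replicate 1 of R1. The intervals lay within 2 log2 units for 4 of the 16 assays and for 48 of the 273.

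**Figure D4:**
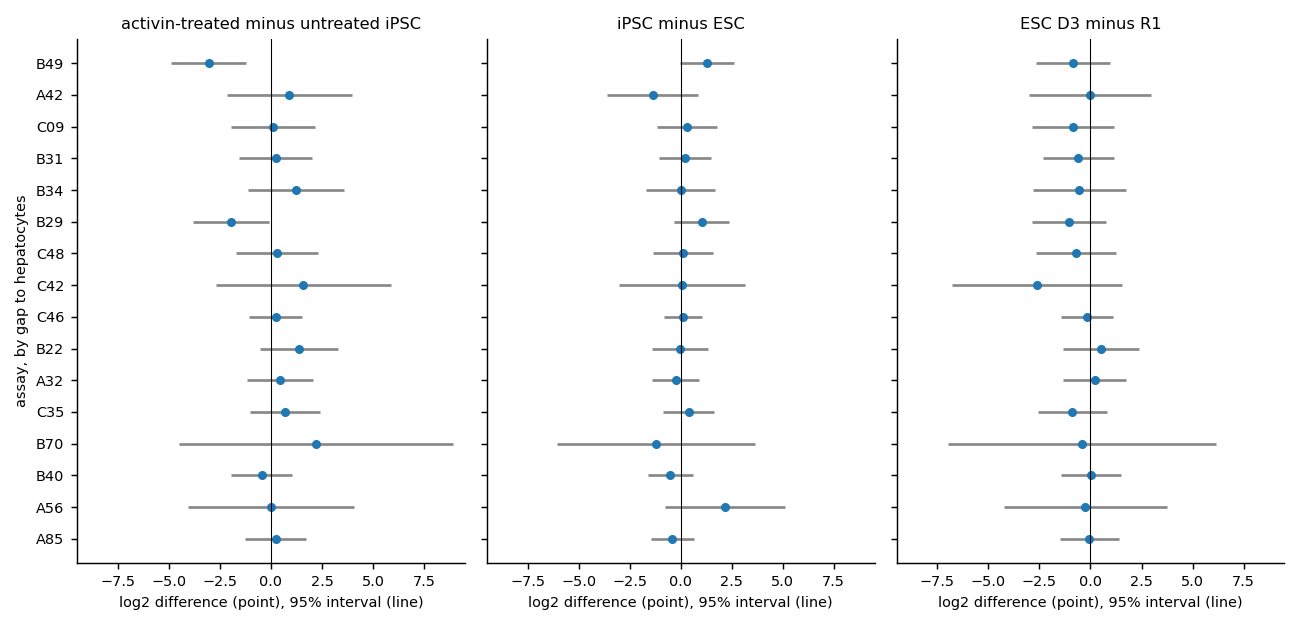
Points are limma log2 differences of the 16 assays, in order of falling gap, and lines are 95% intervals, for activin-treated minus untreated iPSC (left), iPSC minus ESC (middle) and ESC D3 minus R1 (right). Most intervals span 0, those of B49 and B29 after activin lie below it without passing adjustment, and those of B70 are the widest.

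The set itself moved with the processing. With the limit at 32, 6 of the 16 assays met the rule and no others did, and with the limit at 40, all 16 did, with 9 more. With 1 mean Ct for all positions together, 22 assays met it, 9 of them among the 16, and 12 of the 16 kept a gap of at least 1.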

How the data were processed

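The authors deposited raw Ct values (PCR cycles) for 315 positions in 26 samples. Each stem-loop reaction took 5 ng of total RNA, and PCR of 303 miRNAs ran for 40 cycles, per the labels' protocols. How the Ct was set is not given in the sources used here. A deposited table of comparisons holds log2 values, differences of Ct normalized to RNU6 by the authors. Of 8190 values 950 have no Ct and 75 are exactly 36, whose origin is unknown. Late Ct values are the least precise.

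The 16 assays, the lists and the tests were chosen with earlier results of these data known. RNU6 was recovered by least squares from both tables (largest residual 4.0e-09 cycles), up to separate constants for iPSC with fibroblasts and for islets with hepatocytes. Tests used limma 3.58.1 in R 4.3.3, 1 fit over all groups on 24 columns after averaging treated samples by clone. The fit relative to RNU6 held iPSC, fibroblasts and treated clones only. An assay was tested with a Ct below 35 in 50% or more of samples in 1 of its groups, and p-values were adjusted by Benjamini-Hochberg over all assays tested, with a threshold of 0.05. Fits and recovery were tested on simulated data. The labels tie each treated iPSC sample to its untreated clone, and the main fit did not use this pairing. Replicate numbers of ESC and iPSC did not pair samples. Assays were named by rule: the 8 largest and 3 smallest gaps, and the 3 nearest outside. The 3 earliest hepatocyte medians and the 3 smallest p per test were named too. So were assays below 35 in no hepatocyte sample and in every untreated iPSC, ESC, fibroblast and islet sample. Position lists of marker miRNAs were not tested, since positions carry no names. Python 3.11.15, numpy 2.4.6, pandas 2.3.3 and matplotlib 3.10.9 were used.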

Additional observations from a re-analysis of the deposited data

Results flagged for a closer look

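In 48 groups of 5 or 6 samples of the 16 assays, 5 values lay far from the rest of their group in Ct. The groups share samples, and how often this would happen by chance was not tested. Fibroblast replicate 5, the sample with the fewest assays detected, was the latest fibroblast at C09 (a Ct of 32), C48 (33), C46 (33.5) and C35 (no Ct, set to 35). Its reference Ct at C, 29.3, was also the latest of the fibroblasts. In relative expression it was the fibroblast median at C48 (-3.71) and within the range of the others at C46 (-4.22). It stayed the lowest fibroblast at C09 (-2.68) and, from the value set to 35, at C35 (-5.68). At C42, iPSC replicate 1 was the latest clone, with a Ct of 35.2, set to 35.

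After activin, both treated samples of 1 clone rose and both of the other fell at 3 assays, relative to the single untreated sample of the clone. At B34 the changes were -0.48 and -0.58 in clone 2 and 0.71 and 1.59 in clone 3, a difference of -1.68 between clone 2 and clone 3. At C48 that difference was 2.10 and at C42 it was 2.17, with clone 2 higher after treatment. The differences between clones were not tested. How many of all assays behaved this way was not worked out, and nothing is read from the 3.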

How the results depend on the processing

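The number of the 16 assays called was 0 under every setting run in all 3 comparisons. Over all assays, the activin comparison called 1, and it called 2 with the limit at 32 or only the groups compared, 4 with late values left missing or treated samples not averaged, 3 with quantile normalization or a Ct below 35 required in every sample, and 0 with 1 mean Ct for all positions, no filter, RNU6 or clone as a replicate block. Leaving out each replicate gave 0 to 5, the 5 without replicate 1 of treated clone 3. For iPSC against ESC, quantile normalization called 2 and only the groups compared 1. The replicate number as a block called 0 there and for D3 against R1. Same-numbered samples of iPSC, D3 and R1 correlated between -0.31 and 0.20, and not every sample correlated best with its own number. That block moved A56 from 2.16 to 4.24 for iPSC against ESC. After activin, B22 turned to -0.0914 with the limit at 32. Leaving out each replicate, 13 to 19 assays met the rule, 13 without islet replicate 2 or hepatocyte replicate 1. With the limit at 32 it was 6, at 40 it was 25, and with a gap of at least 2 it was 10. The gap turned at B29 (-0.19), B22 (-0.0557), B70 (-0.23) and A56 (-0.14) with the limit at 32, at B22 (-2.51), B70 (-1.55) and A85 (-2.04) with quantile normalization, at B70 with group means (-4.45) and without hepatocyte replicate 1 (-8.25) or 2 (-7.52), and at C42 without islet replicate 2 (-0.12). Leaving out each replicate, the gap ranged from -8.25 to 2.35 at B70 and from -0.12 to 3.00 at C42. Apart from the limit at 32, which shortens every gap to a late Ct by construction, the cause was not tested. With group means 13 assays met the rule, 8 of them among the 16, and with quantile normalization 20 and 10. The rule could not be run relative to RNU6, which was not recovered on 1 scale for hepatocytes and the other groups. Ct values near 35 carry the least signal, and 11 hepatocyte medians rest on values set to that limit.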
